A study of Homo sapiens with 6 samples.

Results

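Genes of the lysosome and of autophagy were followed in MM.1S, an established line of human multiple myeloma cells, on 6 one-colour expression arrays. The genes were chosen by symbol: cathepsins, subunits of the vacuolar proton pump, LAMP1 and LAMP2, ATG genes, the GABARAP and MAP1LC3 families, and a list of 22 genes of lysosomes and autophagy given by name, some of which those families already hold. This gave 48 genes of the 14884 with a named probe set, 47 of them protein-coding and 1 a long non-coding RNA. A 1 h pulse of Cfz (read here as carfilzomib, a drug that blocks the proteasome) preceded the culture of every sample, controls included. Of the 6 samples, 3 were then kept for 12 h with the solvent DMSO and 3 for 12 h with 10 µM ATRA (read here as all-trans retinoic acid, which activates retinoic acid receptors). Cells without Cfz were not analysed here, so each value is a difference between ATRA and DMSO in cells already exposed to Cfz. Separate cultures are not stated for the arrays within a group, so p-values reflect the spread between these samples only, and that spread may be technical.

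Lysosomes are acidic organelles in which proteases, glycosidases and lipases break down material delivered by endocytosis or by autophagy. In autophagy a membrane grows around cytoplasm, is decorated with lipid-bound proteins of the ATG8 family and fuses with the lysosome. TFEB and TFE3 are related transcription factors that switch on many lysosomal and autophagy genes through a promoter element named CLEAR, and the kinase mTORC1, which sits on the lysosome, restrains them. Plasma cells make large amounts of antibody and are known to depend on both autophagy and the proteasome to clear protein. Of the 22 genes listed by name, 13 were measured, and GLA, GAA, GUSB, NPC1, NPC2, BECN1, NBR1, WIPI1 and WIPI2 were not analysed here. No subunit of the proton pump itself was analysed here, and its only entry was ATP6V0E2-AS1, an RNA antisense to a subunit gene.

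After ATRA, 5 of the 48 genes were higher and passed the test, and 43 did not pass. They were CTSZ (5.27-fold), ATG2A (1.85-fold), CTSO (1.80-fold), CTSS (1.78-fold) and LITAF (1.56-fold). A gene passed, or was called, where limma's adjusted p over all 14884 genes was under 0.05. Over all genes 3.80% were called, 1.73% higher and 2.07% lower (257 and 308 genes, or 313 and 239 with cyclic loess normalization). Among the 48 genes 10.4% were called, 0 of them lower. Members were chosen with earlier results of these data known, so this share is no independent test against all genes. Without adjustment 9 of the 48 had a p under 0.05 and were higher, and 5 were lower, beside 1119 and 1549 of all 14884 genes. Among the 48 genes the ordinary two-sample test called 6 higher and 0 lower, and eBayes with trend and robust 6 higher and 3 lower. The median log2 difference of the 48 genes was 0.08, beside -0.01 for all genes tested, and 31 of the 48 were higher in mean (64.6%, beside 47.1% of all genes). Of these 31 genes 12 were dim, by the guide given below.

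**Figure D1:**
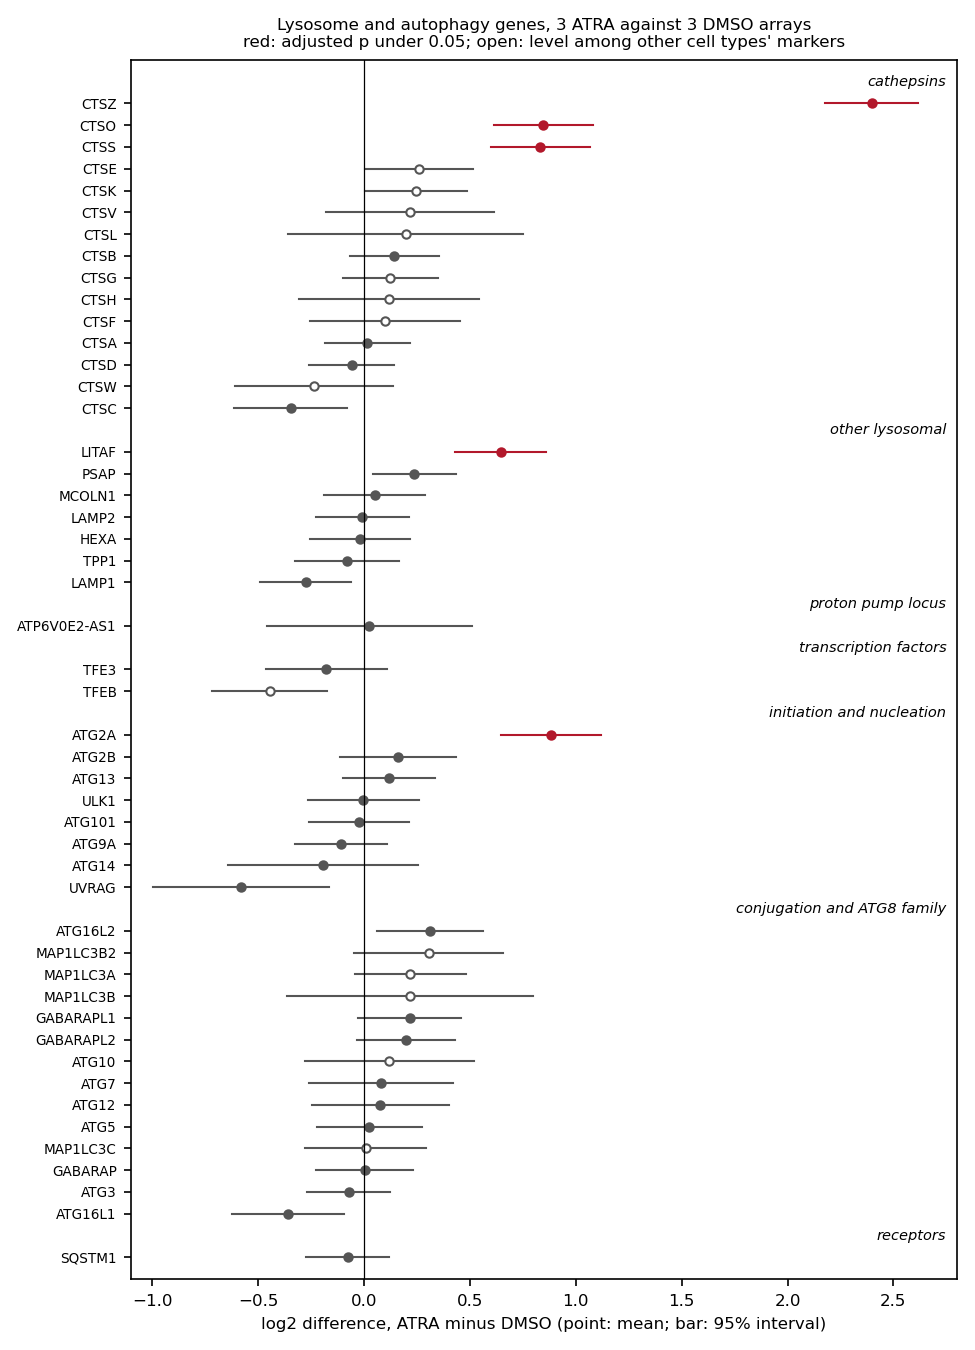
The log2 difference (ATRA minus DMSO, horizontal axis) of each of the 48 genes, grouped by role, with its 95% interval from limma over 3 arrays a group; red marks an adjusted p under 0.05 and open points mark dim genes, with a mean log2 level up to 4.91. CTSZ lies alone at 2.40, and CTSO, CTSS, ATG2A and LITAF follow between 0.64 and 0.88.

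The arrays of MM.1S showed the plasma cell genes SDC1, CD38, IRF4, XBP1, SLAMF7 and MZB1 at mean log2 levels of 9.26 to 10.95, while CD27 and POU2AF1 were at 3.88 and 4.13. Of these CD38, SDC1 and XBP1 also rose with ATRA, by 1.95, 0.84 and 0.54 on the log2 scale (limma adjusted p = 0.000145, 0.00274 and 0.0175), and their part in the results was not tested. Of 3 epithelial markers KRT18 reached 7.15, and these 3 were left out of the guide below. The 12 measured markers of macrophages, B cells, T and NK cells and stroma had mean log2 levels of 2.21 to 4.91. Macrophages are rich in lysosomes, and their 5 measured markers of 7 listed (CD14, CSF1R, LYZ, CD163 and MARCO) stayed between 2.38 and 3.43. Their summed log2 level was 14.5 to 14.6 on the DMSO arrays and 14.4 to 15.1 on the ATRA arrays, and their log2 differences ran from -0.15 to 0.27 with no call in limma. Log2 values correlated at 0.990 to 0.992 between arrays of a group and at 0.985 to 0.987 between groups, over genes, which are not independent replicates. Probe sets differ in how brightly they report, so the marker levels serve only as a rough guide to dimness. By that guide 34 of the 48 genes lay above 4.91 and 14 did not. The 5 called genes were all among the 34 brighter ones, where 14.7% were called beside 7.86% of all genes that bright, and 0 of the 14 dim genes passed (unadjusted p under 0.05 for 3). In mean 19 of the 34 were higher (55.9%, beside 39.1% of all genes that bright), with a median of 0.02 beside -0.06. Of the 14 dim genes 12 were higher in mean (85.7%, beside 52.5% of all dim genes). The choice of members with earlier results known limits these shares too.

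CTSZ encodes cathepsin Z (also named cathepsin X), a lysosomal cysteine protease that removes single residues from the carboxyl end of proteins. Its intensity was 61.5, 65.4 and 64.6 on the 3 DMSO arrays and 314, 361 and 334 on the 3 ATRA arrays. The lowest ATRA value thus stood far above the highest DMSO value. The log2 difference was 2.40 (SE 0.094, 95% interval 2.18 to 2.62, limma adjusted p = 5.07e-05), the 9th largest increase of the 14884 genes. All 16 alternative settings called it, with adjusted p from 4.84e-09 to 0.00381.

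CTSO, a broadly expressed but little studied cysteine cathepsin, read 335, 376 and 333 with DMSO and 665, 584 and 628 with ATRA. CTSS, a cysteine protease that trims the invariant chain of MHC class II and stays active at neutral pH, read 192, 219.6 and 204 with DMSO and 354, 395 and 349 with ATRA. In neither gene did the groups overlap, and the increases were close in size. The log2 differences were 0.85 (SE 0.10, limma adjusted p = 0.00613) for CTSO and 0.83 (SE 0.10, limma adjusted p = 0.00653) for CTSS, ranks 124 and 129 among the increases. Both were called in all 16 alternatives. CTSK, the bone-resorbing cathepsin and the direct neighbour of CTSS in the genome, read 19.4, 17.6 and 20.4 with DMSO and 21.3, 24.3 and 22.3 with ATRA. Its groups did not overlap, but the level was dim and the difference of 0.24 did not pass (limma adjusted p = 0.267).

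**Figure D2:**
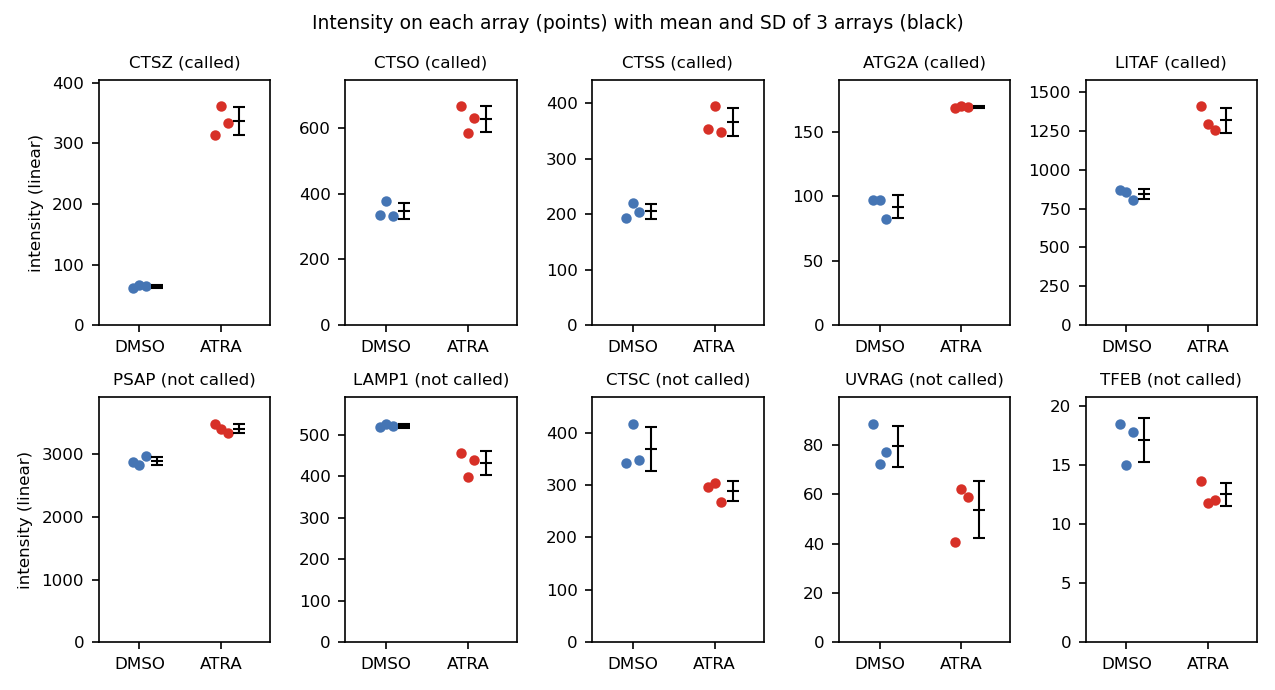
Linear intensity (vertical axis, from 0) on each DMSO array (blue) and ATRA array (red) for the 5 called genes (top row) and 5 genes that did not pass (bottom row), with the mean and SD of 3 arrays in black. All 10 genes shown are among the 18 of the 48 whose groups did not overlap, as for 24.7% of all genes. Separation in each panel thus follows from the genes shown, and the step is largest for CTSZ, from 63.8 to 337.

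CTSC, which activates serine proteases of immune cells by removing dipeptides, read 341, 417 and 347 with DMSO and 297, 303 and 267 with ATRA. All 3 ATRA values were the lower ones. The difference on the log2 scale, -0.35, missed the threshold (95% interval -0.61 to -0.08, limma adjusted p = 0.168). It passed with eBayes with trend and robust alone, and adjusted p ran from 0.0235 to 0.369 over the alternatives. CTSD, CTSA and CTSB, also above the dim levels, did not pass and differed by -0.06 to 0.14. CTSD, the main aspartic protease of lysosomes, read 3497, 3641 and 3721 with DMSO and 3587, 3487 and 3347 with ATRA, with overlapping groups. Its log2 difference of -0.06 had a 95% interval of -0.26 to 0.14, and quantile normalization turned its sign. CTSA, a serine carboxypeptidase that protects beta-galactosidase and neuraminidase in the lysosome, differed by 0.02 (interval -0.18 to 0.22), and CTSB, an abundant cysteine cathepsin, by 0.14 (interval -0.07 to 0.35). CTSB did not overlap between groups, at 108 to 116 with DMSO and 118 to 129 with ATRA.

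Of the 15 cathepsins measured, 3 rose, 0 passed downward and 12 did not pass, with a median log2 difference of 0.14. All 3 were among the 11 cysteine cathepsins, and 0 of the 2 aspartic and 0 of the 2 serine members passed (unadjusted p under 0.05 for CTSE alone; 0 by the ordinary two-sample test and by eBayes with trend and robust). The aspartic and serine classes hold only 2 genes each, and a contrast between classes was not tested. CTSE, CTSF, CTSG, CTSH, CTSK, CTSL, CTSV and CTSW, 8 of the 15, lay at the dim levels of other cell types' markers. Their differences ran from -0.24 to 0.26, and at such levels the presence of these transcripts could not be told. CTSL, a main endopeptidase of lysosomes in many cells, was among them at 14.6 ± 4.62 with DMSO and 16.4 ± 3.50 with ATRA (intensity, SD, n = 3 each; limma adjusted p = 0.732). Of 10 listed inhibitors of cathepsins 5 were measured, and 0 passed in limma (0 with an unadjusted p under 0.05, and 0 by the other tests run). The largest differences there were 0.25 for CST6 and -0.17 for CST7, both cystatins at dim levels.

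Among the 7 other lysosomal genes 1 rose and 6 did not pass, with a median of -0.01. All 7 lay above the dim levels, where 7.86% of all genes were called. With so few genes, 1 call does not set these 7 apart. LITAF encodes a small membrane protein of late endosomes and lysosomes that takes part in sorting cargo for degradation. Its intensity was 867, 855 and 807 with DMSO and 1409, 1293 and 1256 with ATRA, without overlap. The log2 difference was 0.64 (SE 0.092, limma adjusted p = 0.0124). The call was lost in the fit that left out ATRA replicate 1 (0.0525), as it was on leaving out DMSO replicate 1 (0.0509) or DMSO replicate 3 (0.0579) and with the replicate number as a block (0.0547), and adjusted p ran from 5.00e-06 to 0.0579 over the 16 alternatives. SNN, the protein-coding neighbour of LITAF in the genome, was looked up after the values were seen and also rose. It read 147, 163 and 179 with DMSO and 372, 452 and 339.5 with ATRA, 2.37-fold higher (log2 difference 1.25, limma adjusted p = 0.00466). Of 10 protein-coding neighbours of the 5 called genes 6 were measured, and SNN was the 1 that passed. Over all genes 3.80% were called.

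PSAP, the precursor of the saposins that help lysosomal enzymes reach sphingolipids, read 2874, 2828 and 2959.9 with DMSO and 3480.1, 3397 and 3324 with ATRA. All ATRA values were higher, by 0.24 on the log2 scale (interval 0.04 to 0.43), which did not pass in limma (adjusted p = 0.198). It passed in the ordinary two-sample test (0.0420) and when eBayes used trend and robust, and adjusted p ran from 0.000284 to 0.389 over the alternatives. LAMP1, a heavily glycosylated protein of the lysosomal membrane, went the other way, at 518, 527 and 521 with DMSO and 456, 399 and 441 with ATRA. Again the groups did not overlap, and the difference of -0.28 did not pass in limma (adjusted p = 0.171). It passed when eBayes used trend and robust (adjusted p 0.0119 to 0.340 over the alternatives). LAMP2, its relative needed for fusion of autophagosomes and for chaperone-mediated autophagy, was at 277 ± 7.15 and 276 ± 19.6 (intensity, SD, n = 3 each). The difference of LAMP2 had a 95% interval of -0.23 to 0.21. HEXA, a subunit of beta-hexosaminidase, the tripeptidyl peptidase TPP1 and the calcium channel MCOLN1 differed by -0.02, -0.08 and 0.05, each with overlapping groups. ATP6V0E2-AS1 read 42.3, 51.6 and 35.1 with DMSO and 38.4, 57.0 and 37.0 with ATRA, with overlapping groups. Its log2 difference of 0.03 missed the threshold (limma adjusted p = 0.966), and it says nothing of the pump's subunits.

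Neither of the transcription factors rose. TFEB read 18.5, 15.0 and 17.7 with DMSO and 13.6, 11.8 and 12.0 with ATRA. The ATRA values were all lower, but at the dim level of other cell types' markers, and the log2 difference of -0.45 did not pass (95% interval -0.72 to -0.17, limma adjusted p = 0.0949, 0.0694 to 0.240 over the alternatives). TFE3 was brighter, at 189, 188 and 192 with DMSO and 173, 192 and 143 with ATRA. The spread among its ATRA arrays was wide, the groups overlapped, and the difference of -0.18 had an interval of -0.46 to 0.11.

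Promoters were searched for the letters of the elements these factors bind. Windows from 250 bases before to 50 bases after the annotated start came from RefSeq on GRCh38.p14 and were found for 38 of the 48 genes. The core of the CLEAR element, TCACGTGA, stood in the windows of 4 of the 38 (10.5%): ATG3, CTSA, LAMP1 and MCOLN1. Of all 27305 genes with a window 1.18% held it, on either strand. The shorter E-box CACGTG, which lies inside that core, was in 7 of the 38 (18.4%) and in 8.78% of all genes. Of the 5 called genes CTSZ, ATG2A and LITAF had windows, and neither run of letters was in them. The 4 genes with the core differed by -0.07 (ATG3), 0.02 (CTSA), -0.28 (LAMP1) and 0.05 (MCOLN1), and 0 of them passed (LAMP1 alone had an unadjusted p under 0.05, and passed with eBayes with trend and robust). Direct repeats of the retinoic acid half-sites (the letters AGGTCA or the variants GGGTCA and AGTTCA and also GGTTCA), spaced by 1, 2 or 5 bases, were in 0 of the 38 windows and in 0.319% of all genes. The interferon response letters GAAANNGAAA were in 0 of the 38 and in 4.38% of all genes. At such low shares, absence from 38 windows cannot set the members apart from other genes. A match is a run of letters and no proof of binding, and a missing match speaks only of these 300 bases.

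Shown first are the windows of LAMP1 (chr13:113296989-113297288, plus strand), MCOLN1 (chr19:7522374-7522673, plus strand) and CTSA (chr20:45891085-45891384, plus strand), the 3 lysosomal genes with the CLEAR core. The window of CTSZ (chr20:59007205-59007504, minus strand), the gene with the largest increase, follows, and no contrast between windows was tested. All are GRCh38.p14, read 5′ to 3′ in the direction of the gene, and capitals mark each CACGTG. LAMP1 holds 6 of them, MCOLN1 and CTSA 2 each, and CTSZ none, so it has no capitals.
LAMP1: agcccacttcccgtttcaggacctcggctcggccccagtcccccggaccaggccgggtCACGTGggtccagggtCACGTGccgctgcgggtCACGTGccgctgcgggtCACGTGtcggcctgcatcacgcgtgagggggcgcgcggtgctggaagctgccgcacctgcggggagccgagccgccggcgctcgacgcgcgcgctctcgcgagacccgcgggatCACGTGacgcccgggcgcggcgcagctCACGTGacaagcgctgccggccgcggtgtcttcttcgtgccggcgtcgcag
MCOLN1: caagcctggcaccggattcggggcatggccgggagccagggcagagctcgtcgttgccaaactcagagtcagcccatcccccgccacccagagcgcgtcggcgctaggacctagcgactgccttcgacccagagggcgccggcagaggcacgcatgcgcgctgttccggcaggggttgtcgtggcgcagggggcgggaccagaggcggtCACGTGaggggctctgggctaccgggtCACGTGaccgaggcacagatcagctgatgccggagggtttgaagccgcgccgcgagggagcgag
CTSA: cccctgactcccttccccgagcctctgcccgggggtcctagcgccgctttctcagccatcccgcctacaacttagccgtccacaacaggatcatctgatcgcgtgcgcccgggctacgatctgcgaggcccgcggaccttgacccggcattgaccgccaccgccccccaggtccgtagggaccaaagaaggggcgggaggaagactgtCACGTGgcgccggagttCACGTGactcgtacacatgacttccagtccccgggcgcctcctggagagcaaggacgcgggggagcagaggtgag
CTSZ: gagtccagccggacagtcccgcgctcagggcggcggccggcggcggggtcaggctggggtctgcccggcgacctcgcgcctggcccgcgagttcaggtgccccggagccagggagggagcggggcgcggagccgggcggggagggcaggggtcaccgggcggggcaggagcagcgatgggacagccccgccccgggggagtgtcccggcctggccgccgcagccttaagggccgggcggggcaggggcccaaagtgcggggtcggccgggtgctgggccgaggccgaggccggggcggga

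**Figure D3:**
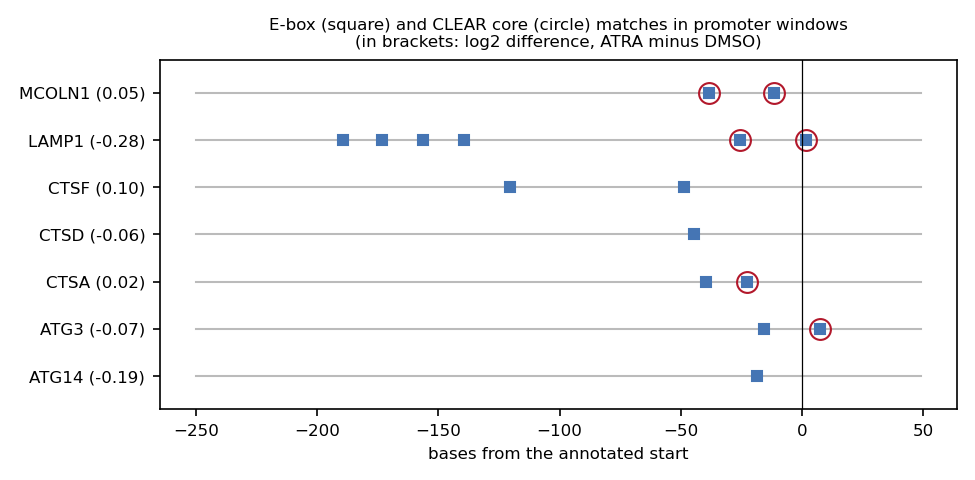
Positions of CACGTG (blue squares) and of the longer core TCACGTGA (red circles) in the windows of the 7 genes that hold them, in bases from the annotated start, with each gene's log2 difference (ATRA minus DMSO) in brackets. LAMP1 holds 6, 4 of them far from the start, and the differences run from -0.28 to 0.10.

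The genes that start an autophagosome were mixed. ATG2A encodes a lipid transfer protein that feeds lipid from the endoplasmic reticulum into the growing membrane. It read 96.7, 97.1 and 82.0 with DMSO and 169, 169.7 and 169 with ATRA, a clear separation with almost no spread among the ATRA arrays. The log2 difference was 0.88 (SE 0.10, limma adjusted p = 0.00542), it ranked 113 among the increases, and it was called in all 16 alternatives. ATG2B, the close relative with the same activity, read 117, 139.6 and 119.7 with DMSO and 129.9, 156 and 135 with ATRA. Its groups overlapped, and the difference of 0.16 had an interval of -0.11 to 0.43; whether the relatives differ in response was not tested.

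UVRAG and ATG14 are alternative partners of the lipid kinase that marks membranes in endosome maturation and in autophagy. UVRAG read 88.5, 72.3 and 76.9 with DMSO and 40.4, 62.0 and 58.7 with ATRA. Its groups were separate, and its log2 difference of -0.58, the lowest of the 48, did not pass in limma (95% interval -0.99 to -0.17, adjusted p = 0.137). It passed with eBayes with trend and robust only (range over the alternatives 0.0455 to 0.309). ATG14 read 35.5, 38.4 and 34.8 with DMSO and 25.8, 43.4 and 28.4 with ATRA, so that ATRA replicate 2 stood above every DMSO value. The difference of ATG14 was -0.19 over all arrays and -0.42 without that array, and neither passed.

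The ULK1 kinase complex opens the pathway. ULK1 was at 66.3 ± 6.39 with DMSO and 66.0 ± 5.25 with ATRA (intensity, SD, n = 3 each), and the 95% interval of its log2 difference was -0.27 to 0.26. Its partners ATG13 and ATG101 differed by 0.12 and -0.02. A second, dimmer probe set of ATG101 gave -0.32. ATG9A, the membrane-spanning protein of the vesicles that seed the membrane, differed by -0.11. Of the 8 genes of initiation and nucleation 1 rose, 0 passed downward and 7 did not pass, with a median of -0.01. All 8 lay above the dim levels, where 7.86% of all genes were called, beside 3.80% over all levels. With so few genes, 1 call does not set these 8 apart.

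Of the 14 genes of ATG8 conjugation and the ATG8 family 0 passed in limma, the ordinary two-sample test or eBayes with trend and robust. Over all genes 3.80% were called in limma. Of the 14 genes 5 were dim, where 1.01% of all genes were called, and 9 were brighter, where 7.86% were. With so few genes, 0 calls do not set the family apart. Without adjustment 1 was higher and 1 lower at a p under 0.05, beside 1119 and 1549 of all 14884 genes. The higher one was ATG16L2 and the lower one ATG16L1, relatives of the scaffold that places the conjugation enzyme on membranes. ATG16L1, the one needed for autophagy, read 41.9, 40.2 and 41.6 with DMSO and 34.3, 27.9 and 34.9 with ATRA. ATG16L2 read 41.1, 44.5 and 39.2 with DMSO and 50.3, 57.3 and 47.7 with ATRA. In each gene the groups were separate, and the directions were opposite, with log2 differences of -0.36 (interval -0.62 to -0.09, limma adjusted p = 0.150) and 0.31 (interval 0.06 to 0.56, limma adjusted p = 0.185).

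The enzymes and carriers of conjugation, ATG3, ATG5, ATG7, ATG10 and ATG12, differed by -0.07 to 0.12. All 7 measured ATG8 family members were higher in mean, by 0.00 to 0.31, and 4 of the 7 were dim. In mean 47.1% of all genes were higher, 52.5% of those up to the level of 4.91 and 39.1% of those above. GABARAP, MAP1LC3B and MAP1LC3C changed sign under some settings. GABARAPL1, an ATG8 protein whose gene responds to stress in many cells, read 155, 163 and 151 with DMSO and 164, 183 and 199 with ATRA, without overlap. GABARAPL2 read 127, 133 and 120.5 against 147, 156 and 134, also without overlap. Their differences of 0.21 and 0.20 did not pass (limma adjusted p = 0.343 and 0.359), and GABARAP itself was at 1125 ± 87.1 and 1125 ± 49.1 (intensity, SD, n = 3 each). MAP1LC3A, MAP1LC3B, MAP1LC3B2 and MAP1LC3C were dim, and MAP1LC3B and MAP1LC3B2 are near-identical copies whose values may not be separable. Lipidation of these proteins, the usual readout of autophagy, is not seen by an RNA array. SQSTM1, the receptor p62 that carries ubiquitinated protein into autophagosomes, read 859, 890.0 and 905 with DMSO and 829, 823 and 862 with ATRA. The groups overlapped narrowly, and the difference was -0.08 (interval -0.28 to 0.12).

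**Figure D4:**
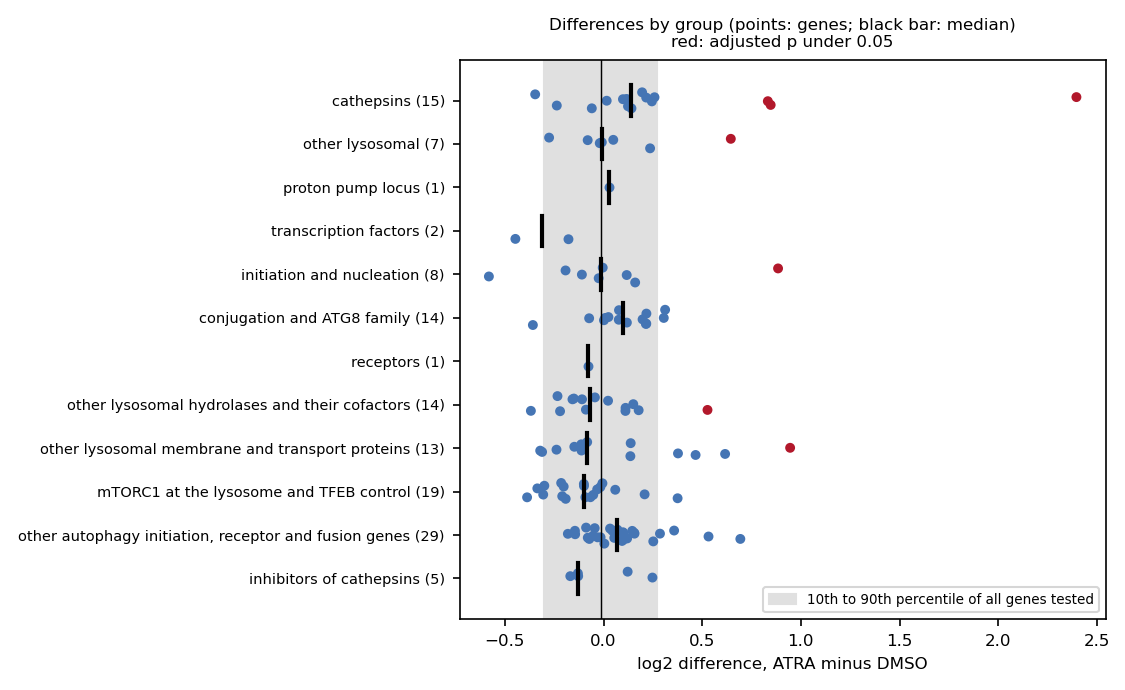
Log2 differences (ATRA minus DMSO, horizontal axis) of the 48 genes by role and of the 5 further gene lists, 1 point a gene, with the number measured in brackets, the median as a black bar, called genes in red and the 10th to 90th percentile of all genes tested (-0.30 to 0.27) in grey. Called genes lie to the right only, and the medians lie between -0.31 and 0.14.

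Counted over all 48, the ATRA and DMSO arrays formed separate ranges for 18 genes (37.5%), 12 higher and 6 lower, as they did for 24.7% of all genes. Among genes above the level of 4.91 the shares were 44.1% of the members and 41.5% of all genes, and among dimmer ones 21.4% and 13.1%. The lysosomal genes (cathepsins and the 7 others) gave 10 of 22 and the autophagy genes 7 of 23. Called genes were 4 of the 22 lysosomal (18.2%) and 1 of the 23 autophagy genes (4.35%). Over all genes 3.80% were called, and 7.86% of those above the level of 4.91. The contrast between lysosomal and autophagy genes was not tested.

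**Figure D5:**
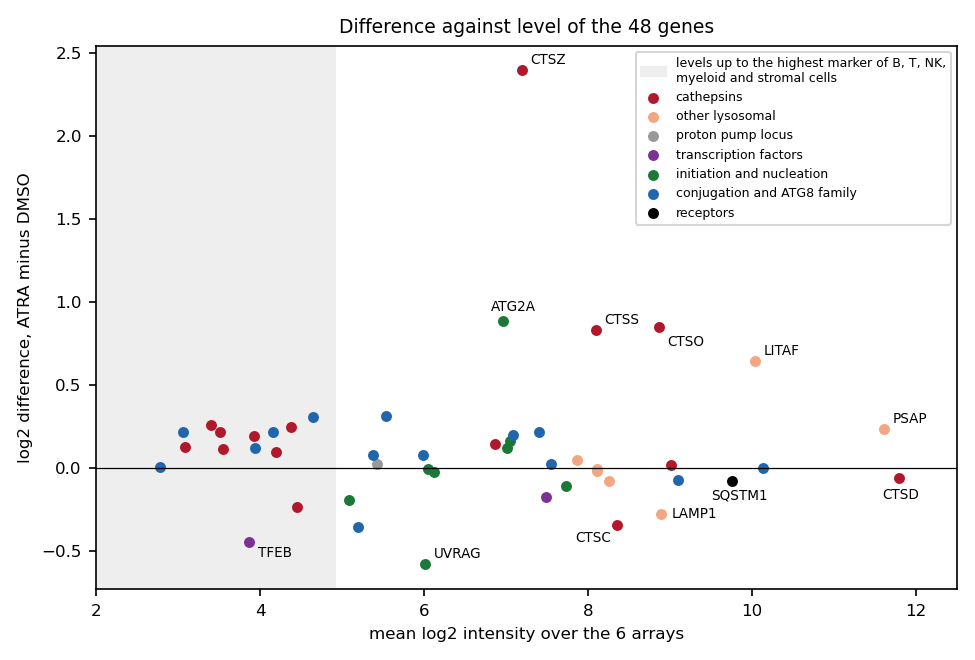
Log2 difference (ATRA minus DMSO, vertical axis) against mean log2 intensity over the 6 arrays for the 48 genes, coloured by role; grey marks levels up to 4.91, the highest mean of the 12 markers of other cell types. The 5 called genes lie right of the grey area, and the 14 dim genes run from -0.45 to 0.31.

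Lists of further genes of the pathway, 124 in all with 80 measured, were examined in the same fit. There 2 rose and 0 passed downward (2.50% called, beside 3.80% of all genes). Of the 80 genes 69 lay above the level of 4.91, where 7.86% of all genes were called. Without adjustment 9 of the 80 were higher and 7 lower at a p under 0.05, beside 1119 and 1549 of all 14884 genes. Among the 80 the ordinary two-sample test called 2 higher and 1 lower, and eBayes with trend and robust called 9 higher and 5 lower. TPCN1, a sodium and calcium channel of endosomes and lysosomes, rose 1.93-fold, from 53.0 ± 2.59 to 102 ± 2.74 (intensity, SD, n = 3 each; limma adjusted p = 0.00238). It was the 1 called of 13 measured lysosomal membrane and transport genes. GM2A, the activator protein that lifts the ganglioside GM2 toward beta-hexosaminidase, rose 1.44-fold, from 159 ± 1.84 to 229 ± 14.3 (intensity, SD, n = 3 each; limma adjusted p = 0.0235). It was the 1 called of 14 further hydrolases and cofactors, and lost its call in all 6 fits with an array left out (adjusted p 0.0581 to 0.0910).

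Of 19 measured genes of mTORC1 at the lysosome and of TFEB control, 0 passed in limma or the ordinary two-sample test. In mean 16 were lower and 3 higher (15.8% higher, beside 47.1% of all genes and 39.1% of those above the level of 4.91). Their median was -0.10, beside -0.01 and -0.06, and 17 of the 19 lay above that level. Without adjustment 1 was higher and 3 lower at a p under 0.05, and eBayes with trend and robust called 1 higher and 1 lower. Over all 14884 genes 3.80% were called in limma, and an unadjusted p under 0.05 was met by 1119 higher and 1549 lower. FNIP2, a partner of folliculin, differed by -0.39, and RRAGD, a Rag GTPase that anchors mTORC1 and TFEB and is itself known as a TFEB target, by 0.38 (limma adjusted p = 0.134). Of 29 further genes of autophagy initiation, cargo receptors and fusion, 0 passed in limma or the ordinary two-sample test, 3 were higher and 0 lower at an unadjusted p under 0.05, and eBayes with trend and robust called 3 higher and 1 lower. The largest differences were those of WDR45 (0.69, limma adjusted p = 0.0617), a phosphoinositide-binding partner of ATG2 proteins, and TECPR1 (0.53, limma adjusted p = 0.0923), which acts at the lysosome. WDR45 passed with cyclic loess normalization (0.0467) and among the brighter 50% of genes alone (0.0269), with 2 further settings.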

How the data were processed

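Biotin-labelled total RNA of 6 MM.1S samples was measured on 1-colour arrays, per the labels' protocols. RMA and limma are listed in the submitters' processing notes, with no version or role. The build and annotation they used are not given in the sources used here. Deposited by the authors were intensities on a linear scale (up to 14038, 0 at or below 0) for 53617 probe sets, and no further background correction or normalization was applied. They were turned to log2 with no pseudocount.

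Of the probe sets 16098 (30.0%) carry 1 symbol in the platform annotation, 0 carry several and 37519 are unnamed here. The 14884 symbols were tested with the probe set of highest mean, and among the 48 genes only ATG101 has several. No member shared its values with another probe set.

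Groups of 3 arrays were compared with lmFit and eBayes of limma 3.58.1 (R 4.3.3), with no block or filter, and the two-sided p-values were adjusted over all genes by Benjamini-Hochberg. The script was tested on simulated data. SDs are over 3 arrays, folds are ratios of geometric means, and 95% intervals are limma's, unadjusted. The number of arrays limits the precision. Same-numbered arrays of the 2 groups were not paired in the main fit. Their deviations correlated at 0.0087 to 0.017, and those of other pairs at -0.0137 to -0.0027.

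Members and lists were chosen with earlier results of these data known. The text names called genes, the 3 uncalled members with the largest difference in each role, a fixed set of members and, for each further list, up to 3 called genes or the 2 largest differences. Members named beyond that, SNN, the dimness guide and the motifs were chosen after values were seen. Alternatives were the replicate block, each array left out, 2 filters on dim genes, 3 normalizations, the mean of probe sets, array weights, the ordinary two-sample test, and trend and robust set in eBayes.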

Additional observations from a re-analysis of the deposited data

How the results depend on the processing

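The number of arrays and the dimness of 14 of the 48 genes limit what could be seen. CTSZ, CTSO, CTSS and ATG2A were called under all 16 alternatives. LITAF kept its direction and lost its call with the replicate block (0.64 on the log2 scale, adjusted p = 0.0547) and in 3 of the 6 fits with an array left out. The count of members called higher was 5, 4 with the replicate block, 4 to 5 with an array left out, and 6 with eBayes with trend and robust or the ordinary two-sample test. Members called lower were 0 in limma, and 3 with eBayes with trend and robust (CTSC, LAMP1 and UVRAG). The sample titles number the replicates and do not say whether same-numbered arrays are linked. Every array correlated best with its own number, at 0.0087 to 0.017, beside -0.0137 to -0.0027 for other numbers.

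Over all genes the counts higher and lower were 257 and 308. They became 113 and 87 with the replicate block, 494 and 833 with eBayes with trend and robust, and 436 and 707 among the brighter 50% of genes alone. The ordinary two-sample test gave 170 and 235. With an array left out they were 112 to 152 higher and 95 to 165 lower.

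The genes whose sign changed under a setting were uncalled, with differences over all arrays from -0.17 (CST7) to 0.22 (MAP1LC3B). With cyclic loess they were ATG101 (0.0336), HEXA (0.0518), LAMP2 (0.0623), MAP1LC3C (-0.0060) and ULK1 (0.0524). With quantile normalization they were ATG101 (0.0133), CTSD (0.0158), HEXA (0.0340), LAMP2 (0.0350), MAP1LC3C (-0.0071) and ULK1 (0.0403). A common median turned GABARAP (-0.0108) and MAP1LC3C (-0.0046), and array weights turned ULK1 (0.0017). With an array left out the ranges that crossed 0 were -0.0440 to 0.2693 for ATG10, -0.0698 to 0.0302 for ATG101, -0.0372 to 0.1858 for ATG12, -0.0260 to 0.1135 for ATG5 and -0.0518 to 0.2261 for ATG7. They were -0.1738 to 0.1657 for ATP6V0E2-AS1, -0.0178 to 0.0418 for CTSA, -0.0132 to 0.2195 for CTSF and -0.0681 to 0.2879 for CTSH. For GABARAP the range was -0.0513 to 0.0598, for HEXA -0.0748 to 0.0407, for LAMP2 -0.0582 to 0.0447 and for MAP1LC3B -0.0712 to 0.3813. For MAP1LC3C it was -0.0511 to 0.1077, for MCOLN1 -0.0178 to 0.0937, for ULK1 -0.0662 to 0.0698 and for the inhibitor CST7 -0.3172 to 0.0495. The cause of these changes was not tested.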
